A study of Mus musculus with 18 samples.

Results

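Kinesins are motor proteins that use ATP to move along microtubules, and in the embryonic forebrain they serve 2 kinds of work. One group builds and moves the spindle and closes the midbody when a progenitor divides. Another carries vesicles, mitochondria, cilium components and cytoskeletal subunits along the processes of neurons, which no longer divide. The members described here were chosen by their level and by name and not by genotype, but with earlier results of these data known. They were all rows of the gene table whose symbol is Kif followed by a number and at most a letter, kept where the mean level over all nuclei of the 18 libraries was at least 5 CPM (counts of a gene per 1000000 unique molecular identifiers, UMIs, of the same nuclei). This left 32 of 38 such rows among 55335 genes. Just inside the limit stood Kif7 with 5.62 CPM and Kif27 with 6.17 CPM, and just outside it Kif9 with 4.75 CPM and Kif17 with 3.41 CPM.

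Single-nucleus RNA sequencing had been done on the forebrain of mouse embryos of the line C57BL/6-Myt1l em1Jdd/J, kept by crosses to C57BL/6J, at embryonic day 14, from crosses of heterozygous parents carrying the Myt1l allele labelled S710fsX, a frameshift. Myt1l encodes a zinc finger transcription factor of postmitotic neurons. The groups were WT (no mutant allele), Het (1 copy) and KO (both copies), with 3 embryos each, drawn across litters and of both sexes, and each embryo was sequenced in 2 runs that were added together here. The allele is carried by every cell of the embryo, so a difference seen in progenitors or neurons cannot be assigned to the cell type in which the gene acts.

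The 18 libraries held between 25300676 and 93334845 UMIs. After filters on depth, mitochondrial share and doublets, 195337 nuclei remained, 14906 to 26103 per embryo, with a median of 2521 UMIs. The genotype tag in the labels read WT for all 9 libraries of run 1, so groups were taken from the sample titles. Myt1l RNA itself was not lower in KO. In excitatory neuron-like nuclei it stood at 2013, 2278 and 2157 CPM in the WT embryos, at 2247, 2514 and 2397 CPM in the Het embryos and at 2441, 2764 and 2469 CPM in the KO embryos. Every KO embryo was above every WT embryo (KO against WT log2 change 0.27 ± 0.079, SE, edgeR adjusted p = 0.134), and RNA of a frameshift allele gives no check of the genotype labels. Clusters were named from marker genes, with kinesins, Top2a and Myt1l kept out of the clustering. In clusters whose markers did not decide, 43711 nuclei (22.4%) stayed unnamed. These included a mixed progenitor cluster, which held from 3.985% of nuclei in KO replicate 1 to 8.064% in KO replicate 2. It is left out of the progenitors below, except in 1 alternative. Progenitors (radial glia-like, excitatory intermediate progenitor-like and inhibitory progenitor-like nuclei) were divided by Top2a, a topoisomerase that untangles DNA and is made from S phase to mitosis. This gave 31067 Top2a-positive progenitors with at least 1 UMI of Top2a, 34162 Top2a-negative progenitors and 85818 neurons. The neurons were the excitatory neuron-like, inhibitory neuron-like, Cajal-Retzius-like and diencephalic neuron-like nuclei. Of the 732 diencephalic neuron-like nuclei, 731 came from Het replicate 1, which had 10732 neurons. Their part in the neuron levels of that embryo was not tested. Summed excitatory neuron markers stood at 3379 CPM in excitatory intermediate progenitor-like nuclei, beside 1059 CPM of the class's own markers. Summed inhibitory neuron markers stood at 9163 CPM in inhibitory progenitor-like nuclei, beside 1515 CPM. WT means of Myt1l were 780 CPM in excitatory intermediate progenitor-like and 45.2 CPM in radial glia-like nuclei. The part of young neurons in these classes was not tested.

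The letters of the promoters are shown first, because the kinesins of dividing cells are known to be switched through short promoter elements. One of these, the cell cycle genes homology region with the letters TTTGAA, is bound by the complexes that keep such genes silent outside G2 and mitosis. RefSeq windows from 250 bases before to 50 bases after the start site on GRCm38.p6 were found for 27 of the 32 members. Kif5a, Kif5b, Kif13b, Kif20a and Kif21b had no window. The 3 motifs searched on both strands, none of which is contained in another, were TTTGAA, the letters CCAAT of the CCAAT box and the letters GGGCGG of the GC box. Of the 11 matched members of the mitotic set defined below, 9 held TTTGAA. In Kif14 and Kif2c the RefSeq window begins at a start site 1505 and 3867 bases inside the gene as GENCODE places it, so it is not the window at the gene's outer start. The other 7 lie within 1000 bases of that start and are printed in the gene's own direction, as 60 bases around the match nearest to the transcript and reaching at most 30 bases past the RefSeq start site. Capitals mark TTTGAA or, where the match is on the other strand, its reverse complement TTCAAA.
Kif11, chr19:37376336-37376395, plus strand: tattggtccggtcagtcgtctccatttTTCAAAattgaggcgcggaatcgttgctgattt
Kif15, chr9:122951035-122951094, plus strand: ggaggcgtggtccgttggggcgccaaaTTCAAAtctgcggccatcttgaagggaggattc
Kif22, chr7:127042405-127042464, minus strand: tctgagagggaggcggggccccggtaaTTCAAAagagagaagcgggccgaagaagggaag
Kif18b, chr11:102925095-102925154, minus strand: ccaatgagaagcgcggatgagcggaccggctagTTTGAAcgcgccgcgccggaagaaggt
Kif23, chr9:61946770-61946829, minus strand: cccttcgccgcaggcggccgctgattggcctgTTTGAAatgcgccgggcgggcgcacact
Kif4, chrX:100626035-100626094, plus strand: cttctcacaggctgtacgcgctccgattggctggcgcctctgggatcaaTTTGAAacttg
Kif20b, chr19:34922328-34922387, plus strand: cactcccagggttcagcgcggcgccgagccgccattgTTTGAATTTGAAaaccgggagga

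In these 7 the letters began within 20 bases of the start site. The promoters of Kif18a and Kif24, the other matched members of the mitotic set, did not hold them in the window. Among the 16 matched members outside the set, Kif1a, Kif26b and Kif27 held TTTGAA, and of all 32851 mouse promoter windows 17.9% did. With windows more than 1000 bases from the GENCODE gene start left out, which also removes those of Kif1a and Kif27 with the letters, the count was 7 of 9 in the mitotic set and 1 of 15 outside it (Kif26b). Within 20 bases of the start site the letters stood in 1 member outside the set, Kif26b, and in 2.17% of all windows. CCAAT was found in 7 of 11 mitotic and 6 of 16 other members (37.4% of all windows) and GGGCGG in 7 of 11 and 13 of 16 (35.7% of all windows). A match is a statement on letters only, and binding was not measured.

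The question the member list was built around is which kinesins belong to dividing progenitors and which to neurons. Because the list was drawn up for this contrast, the levels are given as a description, without a test. Of the 32 members, 15 had their highest mean in Top2a-positive progenitors, 10 in Top2a-negative progenitors and 7 in neurons. The distances were unequal. A block of 12 kinesins was 16.4-fold to 63.3-fold higher in Top2a-positive progenitors than in neurons, and the next, Kif26b, was 5.07-fold higher. A limit of 10-fold, chosen after these values were seen, was used to set off the mitotic set of 12 from the 20 others. The name is for the set and gives no stage to each member. Kif24 and Kif15 were higher in nuclei high in S phase genes, as given below. For 29 of 32 members all 9 embryos lay on the same side of the contrast. No share over all genes stands beside this count or those of 15, 10 and 7. None of them is read as particular to kinesins. The mix of lineages differed: in WT replicate 1, 823 of 3292 Top2a-positive and 2106 of 3564 Top2a-negative progenitors were excitatory intermediate progenitor-like. Within that class Kif26b stood at 832 CPM in Top2a-positive and 766 CPM in Top2a-negative nuclei. Kif21a stood at 1041 and 995 CPM (956 and 1018 CPM in radial glia-like nuclei), and Kif21b at 348 and 437 CPM. The part of this mix in the counts of 15, 10 and 7 was not tested.

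**Figure D1:**
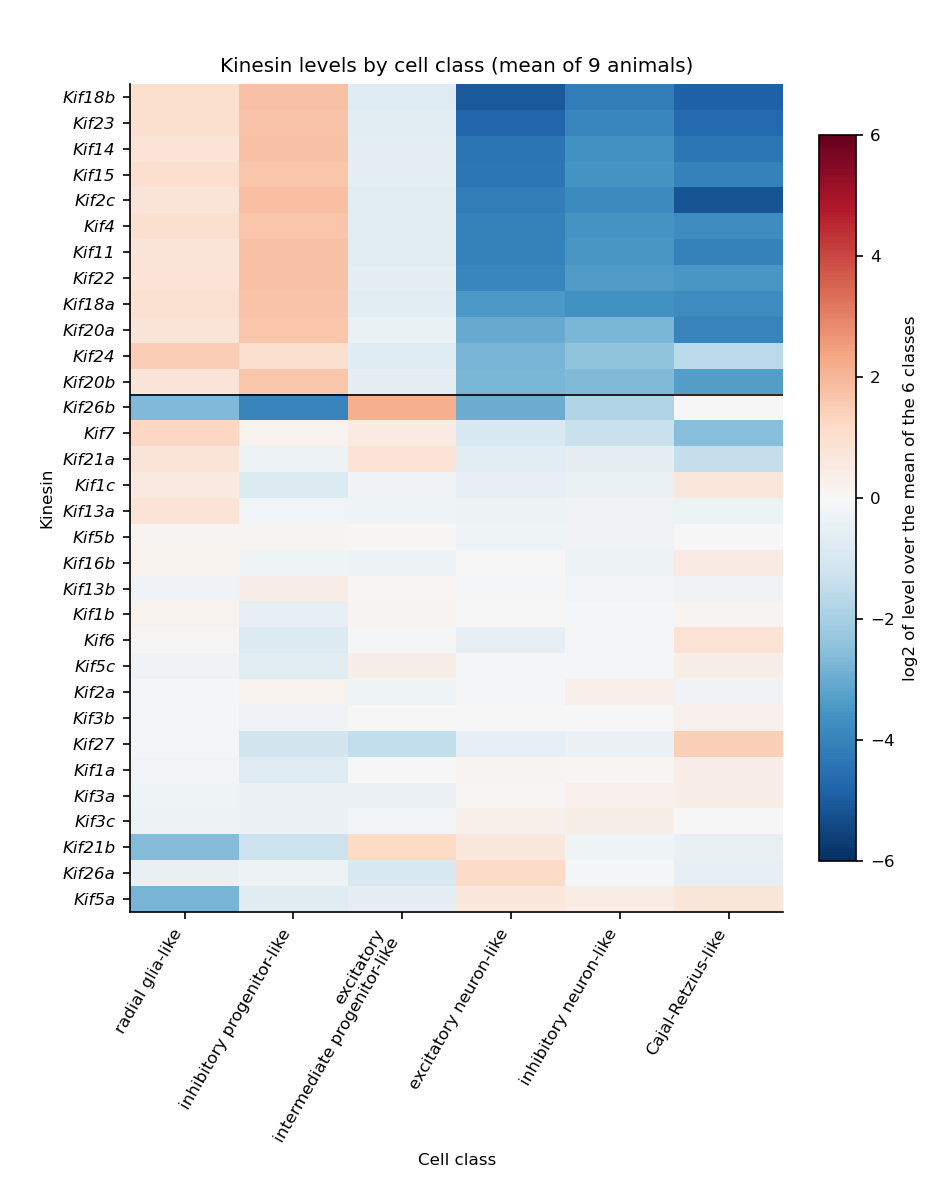
Level of each of the 32 kinesins (rows) in each class of nuclei (columns), as log2 of the mean CPM over 9 embryos relative to the gene's own mean over the 6 classes. The 12 members of the mitotic set, above the black line, are high in radial glia-like and inhibitory progenitor-like nuclei and low in the neuronal classes, while Kif26b and Kif21b peak in excitatory intermediate progenitor-like nuclei and Kif5a in neurons.

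Motors known for work on the spindle made up part of the mitotic set. Kif11, the plus-end motor that pushes the spindle poles apart, ranged from 373 to 453 CPM across the 9 embryos in Top2a-positive progenitors (414 ± 32.4, SD, n = 9) and from 9.99 to 15.6 CPM in neurons (11.9 ± 1.85). The ranges did not meet, and the ratio was 28.4-fold in the lowest embryo and 45.3-fold in the highest. Kif15, which can share the work of Kif11 in holding the spindle bipolar, stood at 471 ± 34.7 CPM against 11.6 ± 3.56 CPM (40.6-fold). Kif2c, a depolymerase that corrects faulty attachments at kinetochores, stood at 77.8 ± 8.47 CPM against 1.87 ± 0.342 CPM (41.6-fold). Kif18a and Kif18b, which limit the length of spindle and astral microtubules, were 31.1-fold and 63.3-fold higher, the latter being the member with the widest contrast. Its level was 94.2 ± 8.92 CPM in Top2a-positive progenitors and 1.49 ± 0.585 CPM in neurons, so the ratio rested on a low denominator and ran from 34.2 to 115 across embryos.

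The chromokinesins, which ride on chromosome arms, and the motors of cytokinesis behaved alike. Kif4 was at 311 ± 19.1 CPM in Top2a-positive progenitors against 8.38 ± 1.82 CPM in neurons (37.2-fold), and Kif22 at 123 ± 13.8 CPM against 3.82 ± 1.06 CPM (32.2-fold). Kif23, the motor subunit of centralspindlin at the midzone, was at 350 ± 32.9 CPM against 6.47 ± 2.02 CPM (54.1-fold). Kif14, which recruits citron kinase to the midbody, was 41.6-fold higher. The kinesins of the family of Kif20a, which brings the chromosomal passenger complex to the midzone, had narrower contrasts, 19.1-fold for Kif20a (45.8 ± 5.01 CPM against 2.40 ± 0.615 CPM) and 16.4-fold for Kif20b (306 ± 18.8 CPM against 18.7 ± 1.46 CPM). Kif24, a centriolar kinesin that restrains the growth of cilia, was 16.6-fold higher, at 189 ± 9.999 CPM against 11.4 ± 1.43 CPM. In neurons the 12 stood at 1.58% to 6.11% of their own level in Top2a-positive progenitors, and Top2a, which chose the nuclei, at 50.6 ± 8.05 CPM against 1349 ± 98.6 CPM. The part of free RNA in these low neuronal values was not tested.

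The remaining members form a gradient between the populations with no second block. Kif5a, the neuronal form of the conventional kinesin heavy chain, was the member with the widest contrast towards neurons. It ranged from 180 to 195 CPM in neurons (188 ± 5.78) and from 36.6 to 48.1 CPM in Top2a-positive progenitors (41.2 ± 3.96), a 4.56-fold difference with no overlap between the ranges. Its sister heavy chains did not share this contrast. Kif5b, the form present in most cell types, stood at 273 ± 8.43 CPM in Top2a-positive progenitors and 209 ± 9.96 CPM in neurons, and Kif5c at 369 ± 16.0 and 409 ± 14.7 CPM with its highest level, 487 ± 13.0 CPM, in Top2a-negative progenitors.

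Among the other carriers, Kif1a, which transports synaptic vesicle precursors, was 1.37-fold higher in neurons than in Top2a-positive progenitors (113 ± 8.78 against 82.4 ± 9.41 CPM). Kif1b, carrier of mitochondria and vesicle precursors, was at 760 ± 23.8 and 788 ± 25.3 CPM, and it was higher in the progenitors in 8 of 9 embryos. The heterotrimeric kinesin-2 motors, which serve both cilia and axons, leaned to neurons in 9 of 9 embryos, by 1.46-fold for Kif3a (105 ± 5.28 against 71.6 ± 3.22 CPM), by 1.57-fold for Kif3c and by 1.13-fold for their partner Kif3b, whose highest level was in Top2a-negative progenitors. Kif26a, an atypical kinesin without motor activity, was 2.29-fold higher in neurons. The depolymerase Kif2a, which restrains axon branches and also acts at spindle poles, was 1.12-fold higher, and Kif27, a relative of the Hedgehog pathway regulator Kif7, 1.27-fold higher at under 6 CPM. Kif7 itself went the other way, with 11.5 ± 1.10 CPM in Top2a-positive progenitors, 11.9 ± 1.66 CPM in Top2a-negative progenitors and 2.91 ± 0.253 CPM in neurons.

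**Figure D2:**
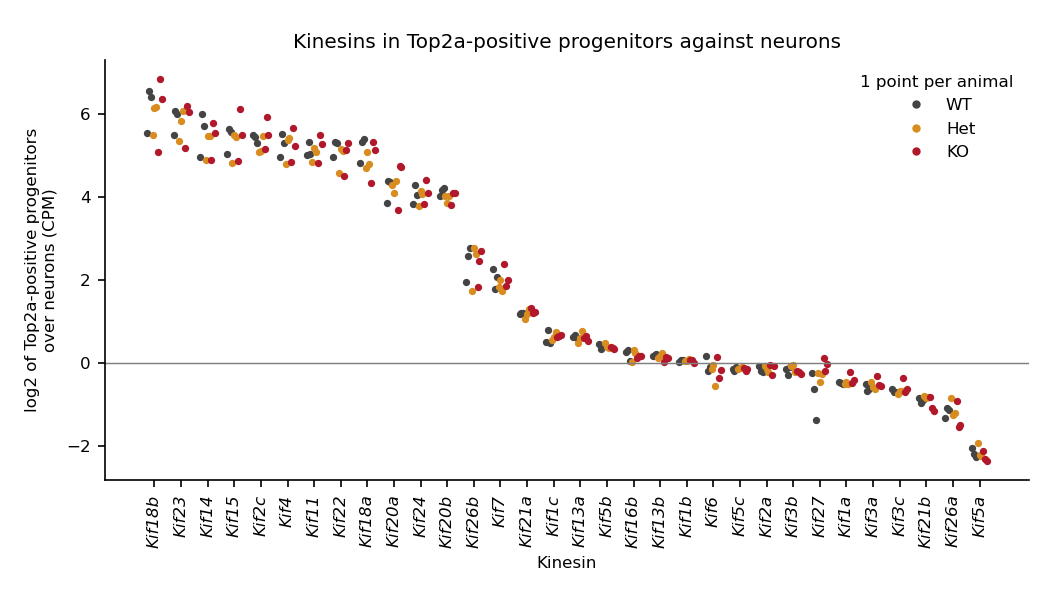
Log2 ratio of the level in Top2a-positive progenitors over that in neurons for each of the 32 kinesins, with 1 point per embryo coloured by genotype. The 12 members of the mitotic set lie well apart at the top, and in the other 20 the ratio passes through 0 down to Kif5a, with the genotypes intermixed.

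Kif26b and Kif21b had a pattern that the contrast of progenitors with neurons does not show. Kif26b, the paralog of Kif26a, reached 786 ± 77.6 CPM in excitatory intermediate progenitor-like nuclei, the transit cells between radial glia and cortical neurons, with 647 CPM in the lowest embryo and 886 CPM in the highest. It was lower on both sides of that stage, at 29.0 ± 7.24 CPM in radial glia-like and 23.2 ± 4.59 CPM in excitatory neuron-like nuclei. Kif21b, a motor that also slows microtubule growth, stood at 409 ± 7.79 CPM in the same nuclei and stayed at 277 ± 10.2 CPM in excitatory neuron-like nuclei, against 29.4 ± 7.21 CPM in radial glia-like nuclei. Its paralog Kif21a was high earlier, at 978 ± 28.7 CPM in radial glia-like and 1010 ± 37.6 CPM in excitatory intermediate progenitor-like nuclei against 370 ± 13.0 CPM in excitatory neuron-like nuclei. Kif26a was at 109 ± 10.8 CPM in excitatory neuron-like nuclei and at 25.6 to 46.7 CPM in the progenitor and inhibitory neuron-like classes.

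Levels were also taken class by class instead of over all neurons, with Top2a-positive progenitors kept as 1 population. In this split 11 rather than 7 members had their highest level in a neuronal class. Of these, 8 (Kif5a, Kif1a, Kif3a, Kif16b, Kif3b, Kif1c, Kif6 and Kif27) peaked in the small Cajal-Retzius-like class of 2024 nuclei, which make reelin at the surface of the cortex (Kif5a 211 ± 14.2 CPM there). Kif2a and Kif3c peaked in inhibitory neuron-like and Kif26a in excitatory neuron-like nuclei. The mitotic set was not altered by this, and each of its 12 members stayed highest in Top2a-positive progenitors. Its choice at 10-fold or more over neurons made this likely beforehand. The set also reached outside the progenitor classes used here. Pooled over embryos, its 12 members summed to 1383 CPM in oligodendrocyte progenitor-like nuclei (734 UMIs in 195 nuclei). In microglia-like nuclei they summed to 863 CPM (880 UMIs in 384 nuclei). The sum was 2738 ± 184 CPM in Top2a-positive progenitors, which were selected on Top2a. In whole classes, not selected on Top2a, it was 1957 ± 99.3 CPM (radial glia-like), 665 ± 98.1 CPM (excitatory intermediate progenitor-like) and 3219 ± 193 CPM (inhibitory progenitor-like). Of the microglia-like nuclei, 140 came from KO replicate 1 and 103 from Het replicate 1, against 8 to 32 from each other embryo, and without these 2 embryos the sum was 939 CPM.

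Within the Top2a-positive progenitors, nuclei with at least 2 UMIs of 17 S phase genes (17719 nuclei) were set against nuclei with fewer (13348 nuclei). Whether the latter are later in the cycle was not tested. In all, 10 of the 12 members of the mitotic set were higher in the nuclei low in S phase genes, in 9 of 9 embryos each. The ratio was highest for the midbody motor Kif14, at 1.54 ± 0.157 (SD, n = 9), and the kinetochore depolymerase Kif2c, at 1.52 ± 0.114, followed by Kif20a at 1.48 ± 0.129, Kif23 at 1.44 ± 0.121 and Kif20b at 1.42 ± 0.0744. It was lowest for Kif11 at 1.14 ± 0.0820 and Kif4 at 1.10 ± 0.0663. Kif15 and Kif24 went the other way in 9 of 9 embryos, with ratios of 0.885 ± 0.0713 and 0.693 ± 0.0482. Among Top2a-negative progenitors Kif24 stood at 88.4 CPM in nuclei high and 20.4 CPM in nuclei low in S phase genes, a ratio of 4.41 ± 0.808, and Kif15 had a ratio of 2.94 ± 0.523. All 12 were higher in the S phase-high nuclei of that population in 9 of 9 embryos. Within the Top2a-positive nuclei the order of the ratios thus ran from Kif24 and Kif15 at the lower end to Kif2c and Kif14 at the upper end. Nuclei high in S phase genes were also the deeper ones, with a median of 2436 to 3448 UMIs per embryo against 1871 to 2979. Members outside the set differed as well. The ratio was 2.05 ± 0.360 for Kif21b, 1.58 ± 0.240 for Kif5a and 1.52 ± 0.254 for Kif26b, above 1 in 9 of 9 embryos each. It was 0.882 for Kif2a and 0.927 for Kif5b, below 1 in 9 of 9. The parts of depth and lineage in the order were not tested.

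**Figure D3:**
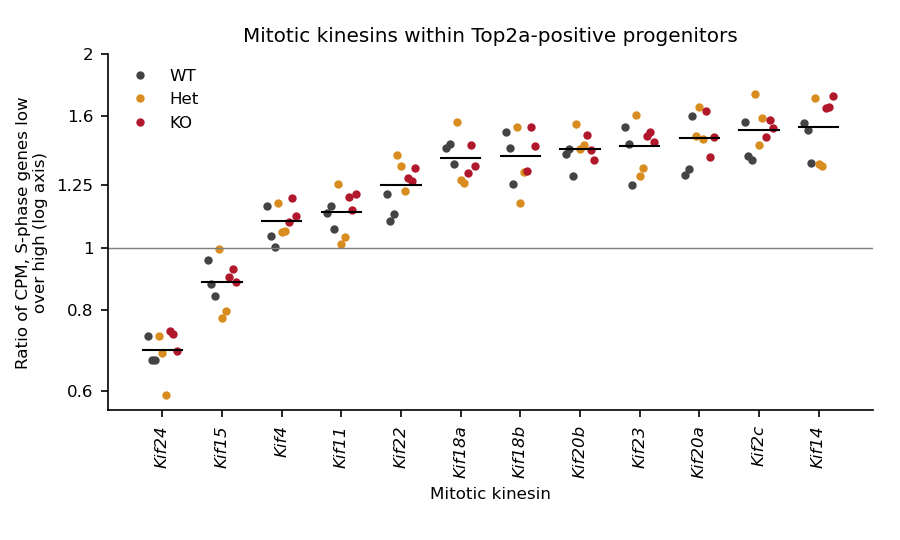
Ratio of the level in nuclei low in S phase genes to that in nuclei high in them, within Top2a-positive progenitors, for the 12 members of the mitotic set, on a log axis. Points are the 9 embryos and lines their mean. Kif14 and Kif2c lie highest, and Kif15 and Kif24 lie below 1 in every embryo.

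The lineage also mattered within the Top2a-positive nuclei. For 11 of the 12 members the mean level was highest in inhibitory progenitor-like, intermediate in radial glia-like and lowest in excitatory intermediate progenitor-like nuclei, by 1.82-fold to 2.28-fold between the ends. The full order held in 9 of 9 embryos for 10 of them and in 7 of 9 for Kif20a. Kif11 stood at 614 ± 47.5, 399 ± 17.0 and 285 ± 35.9 CPM in that order. Top2a had the same order, at 1904 ± 151, 1285 ± 80.3 and 1041 ± 104 CPM, so these nuclei also differed in the gene that selected them. Kif24 was the exception, highest in radial glia-like nuclei at 243 ± 12.5 CPM, against 142 ± 15.5 CPM in inhibitory progenitor-like and 96.4 ± 14.3 CPM in excitatory intermediate progenitor-like nuclei, in 9 of 9 embryos. In the same dividing nuclei Kif26b already stood at 832 ± 132 CPM in excitatory intermediate progenitor-like against 25.9 ± 6.10 CPM in radial glia-like and 11.1 ± 4.90 CPM in inhibitory progenitor-like nuclei. Kif21b was at 348 ± 20.2 against 26.2 ± 7.35 and 71.9 ± 10.9 CPM. Kif5a was at 69.3 ± 6.71 and 75.2 ± 7.10 CPM in the excitatory and inhibitory lineages and at 17.7 ± 3.23 CPM in radial glia-like nuclei.

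Gene lists of the same machinery divided along the same lines, again as a description. All 25 spindle and cytokinesis genes other than kinesins were higher in Top2a-positive progenitors than in neurons, with a median of 28.9-fold, and so were 12 of 12 cell cycle regulators (18.1-fold) and 17 of 17 S phase genes (6.98-fold). Of 16 kinesins and partners not named by Kif and a number, 7 were higher, led by the minus-end motor Kifc1 (113 against 3.48 CPM) and the kinetochore motor Cenpe (516 against 20.4 CPM), while Kifap3, the adaptor of Kif3a and Kif3b, was higher in neurons (230 against 131 CPM). Dynein and dynactin, the opposing motor and its activator, were divided evenly, with 8 of 17 higher and a median of 0.969-fold. Within that list the intermediate chain Dync1i1 was at 10.8 CPM in progenitors and 164 CPM in neurons, and the dynein regulator Nde1 at 65.7 and 3.10 CPM. Of 18 neuronal microtubule proteins 2 were higher in Top2a-positive progenitors.

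The comparison of WT, Het and KO asks whether loss of Myt1l alters either group. Counts were summed per embryo and tested with edgeR over all genes of a population, and a kinesin was called at an adjusted p (Benjamini-Hochberg) below 0.05 with a log2 change beyond 0.2 either way. Over 8 populations and 3 contrasts, 735 tests of members gave 0 calls by edgeR and 0 by DESeq2, and 23 (3.13%) had an unadjusted p under 0.05, beside 1.72% to 12.9% of all genes over the same populations and contrasts. In excitatory neuron-like nuclei, the population with most changes, 0 of 32 members were called for KO against WT beside 1.22% of all 17360 genes, and in Top2a-positive progenitors 0 of 32 beside 0.0% of 17005 genes. For KO against Het the share of all genes called was 0.00576% in excitatory neuron-like and 0.0568% in Cajal-Retzius-like nuclei. At an unadjusted p under 0.05 the count was 5 of 32 in excitatory neuron-like nuclei (12.9% of all genes) and 0 of 32 in Top2a-positive progenitors (2.91% of all genes). For Het against WT these counts were 2 (3.81% of all genes) and 1 (1.77%), and the WT embryos are shared by both contrasts. No population or contrast gave a member that passed the test without a block. Same-numbered embryos deviated together, and 2 members passed in a blocked fit on these numbers for KO against WT in excitatory neuron-like nuclei, Kif27 (edgeR adjusted p = 0.0443) and Kif18a (edgeR adjusted p = 0.0483), beside 5.26% of all genes. The embryos of a genotype are separate animals but of few litters, and litter was not a term in the fit.

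In Top2a-positive progenitors the members of the mitotic set were close between the genotypes. Kif11 stood at 430, 438 and 396 CPM in WT, at 452, 373 and 375 CPM in Het and at 384, 453 and 427 CPM in KO, with groups that overlap throughout. Its log2 change was 0.01 ± 0.087 (SE, 95% interval -0.17 to 0.20) for KO and -0.07 (-0.26 to 0.12) for Het, both against WT with an edgeR adjusted p of 1.00. Kif23 stood at 378, 356 and 339 CPM in WT, at 401, 316 and 299 CPM in Het and at 328, 351 and 381 CPM in KO, a log2 change of 0.00 (-0.21 to 0.21) for KO and -0.07 (-0.28 to 0.14) for Het. The members with the lowest unadjusted p for KO against WT among the 15 highest in this population were Kif24, at 173, 199 and 175 CPM in WT and 192, 204 and 186 CPM in KO (0.10, interval -0.06 to 0.27), the endosome carrier Kif16b (55.2 against 51.8 CPM, 0.11, interval -0.09 to 0.30) and Kif20a (44.8 against 49.1 CPM, -0.11, interval -0.34 to 0.12), all with an edgeR adjusted p of 1.00 and overlapping groups. Leaving out 1 embryo at a time moved these changes to 0.049 to 0.190 for Kif24, 0.066 to 0.148 for Kif16b and -0.155 to -0.038 for Kif20a.

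Over the 12 members the log2 changes for KO against WT lay between -0.11 and 0.10, with intervals that together reached from -0.34 to 0.27. For Het against WT they lay between -0.17 and 0.07, with 11 of 12 below 0 and a median of -0.06, beside a median of -0.01 over all genes. The median over all 32 members was 0.00 for KO against WT, as over all genes. Summed per embryo, the set was at 2775 ± 122 CPM in WT, 2679 ± 278 CPM in Het and 2761 ± 187 CPM in KO (SD, n = 3 each). Spindle and cytokinesis genes had 0 of 25 calls in this population, with median log2 changes of 0.01 for KO and -0.07 for Het.

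**Figure D4:**
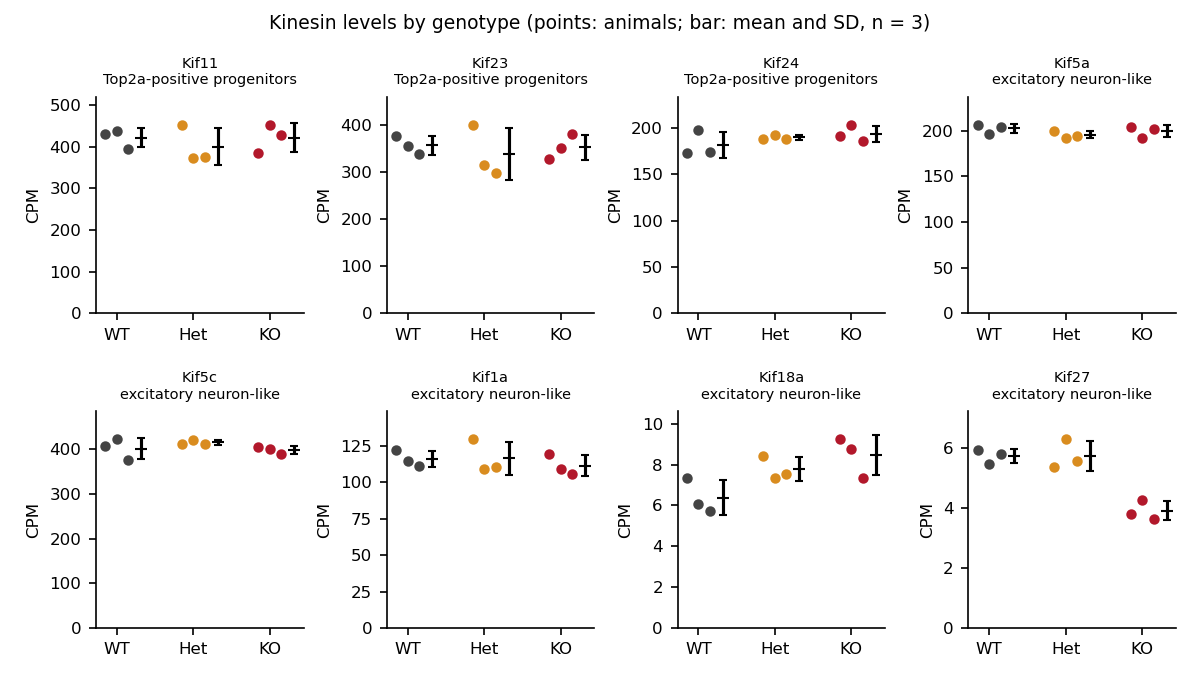
CPM of 8 kinesins in each embryo by genotype, with the mean and SD of each group (n = 3) beside its points, for mitotic members in Top2a-positive progenitors and for carriers and 2 rarer members in excitatory neuron-like nuclei. For Kif11, Kif23 and Kif5a the WT, Het and KO points overlap, while Kif27 is lower in all 3 KO embryos.

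In mixed nuclei the mitotic set can depend on the share of nuclei in cycle. What was counted here is the share of progenitors with at least 1 UMI of Top2a. This is not the share in cycle, as 10217 of 34162 Top2a-negative progenitors were high in S phase genes. Top2a-positive progenitors were also deeper, with medians of 2133 to 3243 UMIs per embryo against 1490.5 to 2468. The part of depth was not tested. Of the progenitors, 48.0%, 49.5% and 49.7% were Top2a-positive in WT, 47.2%, 49.1% and 46.7% in Het and 46.5%, 46.4% and 45.6% in KO. Every KO embryo was below every WT embryo and every Het embryo, while Het and WT overlapped as groups, but neither pattern held in all alternatives. The difference between KO and WT was -2.90 percentage points (49.0 ± 0.896 against 46.1 ± 0.480, SD, n = 3 each), with an exact two-sided permutation p of 0.1, which is the smallest that 3 against 3 can give, and 0.15 adjusted over the 3 contrasts. It was -1.37 points for Het against WT (exact permutation p = 0.2). Within same-numbered embryos, as a replicate block, the difference from WT was -1.56, -3.08 and -4.06 points for KO and -0.818, -0.372 and -2.93 points for Het, lower in 3 of 3 pairs each, with an exact sign-flip permutation p of 0.25, the smallest that 3 pairs can give. The size rested on the choice of nuclei, from -1.86 points with 2 UMIs of Top2a required to -5.51 points in nuclei of at least 2500 UMIs for KO, and from -0.175 points without upper limits to -4.85 points in nuclei of at least 2500 UMIs for Het. KO and WT overlapped (exact permutation p = 0.2) in run 2 alone, without upper limits and with 2 UMIs required. KO and Het overlapped (exact permutation p from 0.2 to 0.7) in 7 of the 8 alternatives for filters, runs and clustering, all but the one without doublet removal. Het and WT separated (exact permutation p = 0.1) in run 1 alone and in nuclei of at least 2500 UMIs. Over all nuclei the summed set was at 661 ± 59.8 CPM in WT, 624 ± 81.5 CPM in Het and 648 ± 85.4 CPM in KO, with overlapping groups, and in such a sum fewer dividing nuclei and less RNA per nucleus cannot be told apart.

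The carriers were likewise close between genotypes in excitatory neuron-like nuclei. Kif5a stood at 206, 197 and 205 CPM in WT, at 200, 192 and 195 CPM in Het and at 204, 192 and 202 CPM in KO. The log2 change was 0.00 ± 0.053 (SE, interval -0.12 to 0.11) for KO and -0.03 (-0.15 to 0.08) for Het. Its sister chains Kif5b (208 CPM in WT, 208 in Het, 206 in KO) and Kif5c (402, 415 and 399 CPM) had fitted log2 changes for KO of 0.00 (interval -0.16 to 0.17) and 0.01 (-0.13 to 0.14), and for Het of 0.02 and 0.07. The fit scales each library by edgeR's TMM factors and the printed means are plain CPM, so changes this near 0 can differ in sign from the means, and no direction is read from them. Kif1a was at 116, 117 and 112 CPM in WT, Het and KO, and Kif1b at 766, 761 and 765 CPM. Kif21a was at 370, 377 and 363 CPM and Kif21b at 281, 277 and 272 CPM. For these 7 motors the log2 changes for KO against WT ran from -0.04 to 0.02, and every edgeR adjusted p was above 0.9.

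Among the 7 members highest in neurons, Kif27, Kif3a and Kif3c had the lowest unadjusted p for KO against WT in excitatory neuron-like nuclei. Kif3a stood at 98.1, 106 and 103 CPM in WT, at 95.3, 96.9 and 94.7 CPM in Het and at 87.8, 88.4 and 98.4 CPM in KO. The KO values overlapped the WT values at 1 embryo, and the log2 change was -0.14 ± 0.067 (edgeR adjusted p = 0.390). Kif3c, with 110 ± 2.93 CPM in WT and 98.6 ± 7.97 CPM in KO, had the same change of -0.14 ± 0.068 (edgeR adjusted p = 0.436). The median over the 7 members was -0.05 beside -0.01 over all genes in this class, with changes near 0 for Kif5a and Kif1a whose sign turned with the choice of nuclei or run. In inhibitory neuron-like nuclei the members with the lowest p were Kif27 (-0.24, edgeR adjusted p = 0.913), Kif1a (-0.07) and Kif3a (-0.04).

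Kif27 and Kif18a are the 2 members whose call turned on the fit. Kif27 stood at 5.93, 5.49 and 5.81 CPM in WT, at 5.36, 6.30 and 5.56 CPM in Het and at 3.81, 4.27 and 3.65 CPM in KO excitatory neuron-like nuclei. All 3 KO embryos were below all others, on 233, 199 and 152 UMIs in the 3 genotypes. The log2 change for KO against WT was -0.53 ± 0.145 (interval -0.84 to -0.22, edgeR adjusted p = 0.107). With the replicate number as a block it was -0.53 with an edgeR adjusted p of 0.0443, a call beside 5.26% of all genes in that fit, and DESeq2 gave an adjusted p of 0.280. The level in KO was below that in WT in both runs, 3.95 against 6.69 CPM in run 1 and 3.89 against 5.49 CPM in run 2. In Top2a-positive progenitors the fitted change was 0.37 with an interval of -0.13 to 0.86. Kif27 overlaps Gm26555, Gm24284 and Mir6369, and the sources used here do not say whether counting used the strand.

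Kif18a, which was chosen after its values were seen, stood at 7.34, 6.07 and 5.73 CPM in WT, at 8.44, 7.32 and 7.53 CPM in Het and at 9.24, 8.75 and 7.36 CPM in KO excitatory neuron-like nuclei. The lowest KO embryo lay just above the highest WT embryo. The log2 change was 0.42 ± 0.139 (interval 0.12 to 0.72, edgeR adjusted p = 0.193), with the replicate block 0.43 (edgeR adjusted p = 0.0483), and by DESeq2 the adjusted p was 0.349. The direction did not hold in both runs. It was -0.36 in run 1 alone, on 72 UMIs in WT and 63 in KO, while run 2 had 184 UMIs in WT and 261 in KO. Kif18a overlaps Mettl15 on the opposite strand, and Mettl15 had a log2 change of 0.15 (edgeR adjusted p = 0.624).

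**Figure D5:**
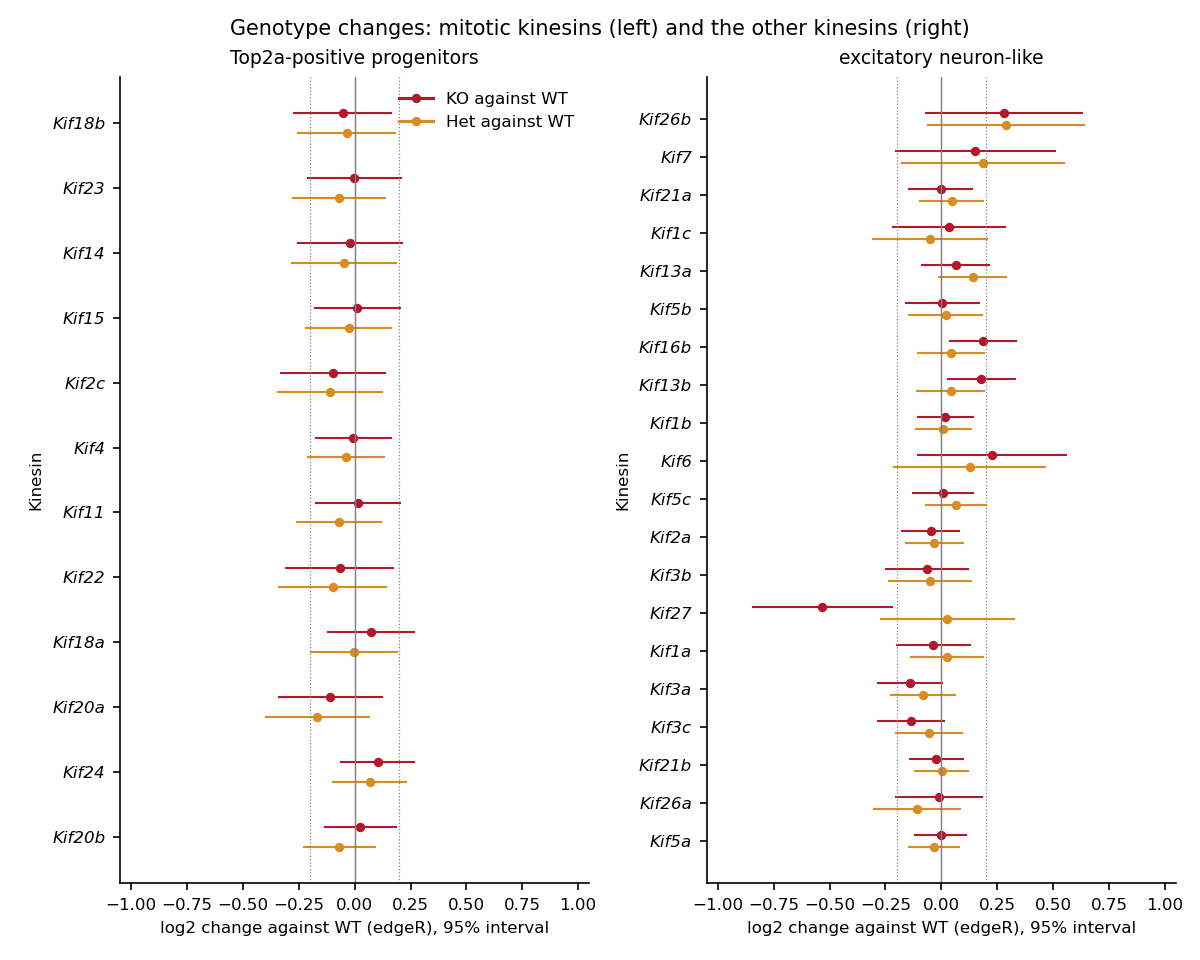
Log2 change for KO and Het against WT, with 95% intervals from edgeR, of the 12 mitotic members in Top2a-positive progenitors (left) and of the 20 others in excitatory neuron-like nuclei (right), with dotted lines at 0.2 either way. All intervals on the left cross 0, and on the right those of Kif27, Kif13b and Kif16b for KO do not.

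Other members with an unadjusted p under 0.05 were chosen after their values were seen, and all had an edgeR adjusted p above 0.25. In the Cajal-Retzius-like class, where 22 members could be tested, 0.148% of genes were called for KO against WT and 3 members had an unadjusted p under 0.05 (8.87% of all genes), Kif1a stood at 171, 138 and 167 CPM in WT and 107, 125 and 117 CPM in KO (log2 change -0.45, adjusted p = 0.272). Kif3a stood there at 138, 148 and 146 CPM in WT, at 114, 122 and 108 CPM in Het and at 105, 112 and 111 CPM in KO (log2 change for KO -0.39, edgeR adjusted p = 0.291). Both Kif3a mutant groups lay below the same WT embryos without overlap. The share of all genes without overlap in this class is not given, so nothing is read from this. Kif13b, a carrier of signalling complexes, had log2 changes for KO against WT of 0.18 and 0.19 in the excitatory and inhibitory neuron-like classes and of 0.20 in inhibitory progenitor-like nuclei. Kif26b in Top2a-positive progenitors was higher in Het than in WT by 0.31 and lower in KO than in Het by 0.33 on the log2 scale, with 178, 194 and 227 CPM in WT, 224, 250 and 268 CPM in Het and 216, 155 and 219 CPM in KO. The share of excitatory intermediate progenitor-like nuclei, where Kif26b is highest, differed between embryos. It was 602 of 2217 in KO replicate 1 and 733 of 4095 in KO replicate 2, and its part was not tested.

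In inhibitory neuron-like nuclei the mitotic set followed the replicate number and not the genotype. It summed to 117, 152 and 143 CPM in replicate 1 of WT, Het and KO, and to 74.7 to 85.6 CPM in the other 6 embryos. Top2a stood at 63.2, 86.6 and 74.7 CPM in those 3 embryos and at 42.7 to 54.6 CPM in the rest, while the summed markers of inhibitory progenitors, at 262 to 361 CPM over all 9, did not set them apart. Kif26b, highest in excitatory intermediate progenitor-like nuclei, stood at 58.3, 91.8 and 74.9 CPM in the same 3 embryos and at 32.3 to 48.8 CPM in the rest. Summed radial glia markers were at 237, 298 and 229 CPM there and at 199 to 227 CPM in the rest. The part of dividing nuclei within this class in these values was not tested. In this class 0 of 32 members were called in any contrast, beside 0.0162% of genes for KO against WT. The mitotic sum was also highest in replicate 1 in excitatory intermediate progenitor-like nuclei. It stood at 869, 761 and 675 CPM in WT, Het and KO there, against 553 to 665 CPM in the other embryos. In radial glia-like, inhibitory progenitor-like, excitatory neuron-like and Cajal-Retzius-like nuclei the values of replicate 1 overlapped the others.

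The lists of related genes had few calls. In Top2a-positive progenitors no list had a call for KO or Het against WT by edgeR. In excitatory neuron-like nuclei 2 genes fell in KO: Dync1i1 from 348 ± 7.88 to 275 ± 28.2 CPM (log2 change -0.32 ± 0.068, edgeR adjusted p = 0.0364) and Mapt, the microtubule-binding protein tau of axons, from 422 ± 26.9 to 329 ± 26.0 CPM (-0.34 ± 0.067, edgeR adjusted p = 0.0264). These were 1 of 17 dynein and dynactin genes and 1 of 18 neuronal microtubule proteins, beside 1.22% of all genes called in these nuclei and 0.0% in Top2a-positive progenitors. The 18 had a median log2 change of -0.18 in excitatory neuron-like nuclei and of -0.19 in Top2a-positive progenitors for KO, with 16 of 18 below 0 in each, beside medians of -0.01 and 0.00 over all genes. The other 5 lists also had medians below 0 in excitatory neuron-like nuclei, from -0.14 for cell cycle regulators (9 of 12 below 0) to -0.06 for kinesin partners (11 of 16), and medians of -0.06 to 0.01 in Top2a-positive progenitors. At an unadjusted edgeR p under 0.05 for KO stood 6 of the 18 in excitatory neuron-like nuclei (12.9% of all genes). In Top2a-positive progenitors 7 of the 18 did (2.91% of all genes). The other 5 lists had 1 to 4 such genes in the former and 0 to 1 in the latter. The part of free RNA or of young neurons in these values was not tested. Whether the lists differ from each other was not tested. The 7 kinesins highest in neurons had medians of -0.05 and 0.03 in the same 2 populations.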

How the data were processed

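The authors deposited, per the labels, 1 matrix of genes by nuclei for each of the 18 libraries, made from combinatorially indexed nuclei with the ScaleRna 1.4 workflow on mm10, with nuclei told from background barcodes by CellFinder of version 1.5. The values the authors deposited are estimated counts of unique molecular identifiers per gene and nucleus, not normalized, and 6.70% to 8.71% of entries per library were not whole. The submitters' processing notes also name Seurat 4.3.0, Scanpy 1.12.0 and DESeq2 1.38.3, and neither the annotation release nor the strand setting is stated in them.

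From these, barcodes were kept with a UMI total of 800 to 6000, a gene number of 300 to 3000, a mitochondrial share up to 1% and a log gene number no less than 0.9 of the log UMI number (200916 of 261143), and the 5% of all barcodes with the highest scores against simulated doublets were removed, which left 195337. The upper limits removed 13.6% of Top2a-positive progenitors, 2.54% of Top2a-negative progenitors and 8.02% of neurons. The same barcode occurred in both runs of an embryo 311 times and in different embryos 3429 times, and all such barcodes were treated as separate nuclei. Nuclei were clustered (scanpy 1.11.5, 3000 variable genes, 50 components, 20 neighbours, Leiden resolution 1), and the 33 clusters were named from fixed markers. A level is CPM of the summed nuclei of an embryo and is not corrected for gene length.

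Sums per embryo were rounded and tested with edgeR 4.0.16 (quasi-likelihood, genotype only, all 9 embryos, R 4.3.3) in 8 populations with at least 20 nuclei per embryo, with Benjamini-Hochberg adjustment over all genes of a population and contrast. DESeq2 1.42.0, the replicate number as a block, each run alone, other filters and clusterings and leaving out each embryo were alternatives, and 2 alternatives, adding a mixed progenitor cluster and keeping nuclei of at least 2500 UMIs, and the pairing of the Top2a-positive share were chosen after seeing the data. Replicate numbers come from the titles. Same-numbered embryos deviated together from their group means, with correlations of 0.212 to 0.645 over 9 pairs in excitatory neuron-like nuclei and 0.25 to 0.587 in Top2a-positive progenitors, and of at least 0.0324 in the Cajal-Retzius-like class. Shares were compared by exact permutation (scipy 1.17.1). The script was tested on simulated counts with known changes.

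The members, sets and gene lists were chosen with earlier results of these data known. Changes between genotypes are given in full for called members, for the 3 members of lowest unadjusted p in the set and population stated, and by role for Kif11, Kif23, Kif5a, Kif5b, Kif5c, Kif1a, Kif1b, Kif3a, Kif21a and Kif21b. The stable identifiers of Kif1b and Kif13a matched the reference names only without their version.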

Additional observations from a re-analysis of the deposited data

How the results depend on the processing

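The 12 members of the mitotic set kept their place under all 18 alternatives for filters, clustering, runs and embryos. Their choice at 10-fold or more over neurons made this likely beforehand. In all, 23 of 32 members kept their place, and Kif1c, Kif3b, Kif5b, Kif6, Kif7, Kif13a, Kif13b, Kif16b and Kif27 moved between sets. With classes taken one by one, 11 members were highest in neurons. Top2a-positive progenitors stayed pooled in that alternative, while Top2a-negative ones were split by lineage. The mean in Top2a-positive excitatory intermediate progenitor-like nuclei was above the highest Top2a-negative class for Kif26b (832 against 766 CPM). The same held for Kif21a (1041 against 1018 CPM), so the count of 23 holds for the pooled form only. The count of kinesins called between genotypes was 0 under every alternative except the replicate block, which gave 2 (Kif18a and Kif27) in excitatory neuron-like nuclei for KO against WT and changed no other call. All genes called there numbered 212, against 913 with the block and 275 by DESeq2. The log2 changes of named motors that lie near 0 turned sign as follows, each against WT, and the cause was not tested. Kif11 in KO was -0.0058 at Leiden resolution 0.5, -0.0053 in nuclei of at least 2500 UMIs and -0.15 in run 1 alone. Kif23 in KO was 0.000196 by DESeq2, 0.011 with 2 UMIs of Top2a, 0.0068 without doublet removal, 0.0020 without a filter on low genes, 0.024 without upper limits, 0.0087 from 2500 UMIs, 0.0016 with KO and WT embryos alone, 0.0047 with the block and 0.016 in run 2 alone. In excitatory neuron-like nuclei Kif5a in KO was 0.0014 (Leiden 0.5), 0.0066 (2500 UMIs) and 0.013 (run 2), and 0.042 for Het (run 1). Kif5b in KO was -0.0071 (no filter), -0.0040 (no upper limits), -0.020 (2500 UMIs) and -0.0078 (run 1), and Kif5c -0.0040 (no filter), -0.0031 (2500 UMIs) and -0.053 (run 1). Kif1a was 0.067 in KO (run 1) and -0.015 in Het (Leiden 0.5), Kif1b -0.0083 in Het (no filter), Kif21a 0.0045 (no upper limits) and 0.062 (run 1) in KO, and Kif21b 0.017 in KO (Leiden 0.5) and -0.015 (no filter), -0.023 (run 1) and -0.011 (run 2) in Het. Kif18a in KO was -0.36 in run 1 alone. Leaving out 1 embryo at a time, ranges that crossed 0 were -0.056 to 0.076 (Kif11, KO), -0.044 to 0.048 and -0.203 to 0.019 (Kif23, KO and Het), -0.089 to 0.018 and -0.050 to 0.063 (Kif1a, KO and Het), -0.025 to 0.048 and -0.018 to 0.041 (Kif1b), -0.060 to 0.049 (Kif21a, KO), -0.022 to 0.030 (Kif21b, Het), -0.021 to 0.0061 (Kif5a, KO), -0.048 to 0.063 and -0.033 to 0.080 (Kif5b), -0.038 to 0.061 (Kif5c, KO) and -0.100 to 0.038 (Kif3a, KO, inhibitory neuron-like nuclei). Kif27 for KO in excitatory neuron-like nuclei stayed between -0.624 and -0.455. The share of Top2a-positive progenitors in KO against WT was lower under every alternative, with the separation of the groups lost in run 2 alone, without upper limits and with 2 UMIs of Top2a, and that of KO from Het in 7 of 8. Depth limits the rarer members: a change in Kif27 rested on 152 to 233 UMIs a genotype.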
